A study of Rattus norvegicus with 6 samples.

Results

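The genes described here are 10 genes of the Nrf2 pathway and of antioxidant defence in rat liver: Nfe2l2, Keap1, Nqo1, Hmox1, Gclc, Gclm, Gsr, Txnrd1, Sod1 and Cat. They were taken by name, and each was found on 1 row of the 30957 genes in the expression table. RNA was measured in the livers of 3 t-PBS and 3 t-DHEA rats, which were female Sprague Dawley animals bought at 3 weeks of age. All recipients first had their own gut bacteria reduced with an antibiotic cocktail of ampicillin, neomycin, metronidazole and vancomycin. The t-PBS rats then received faecal microbiota by daily gavage for 2 weeks from donors injected with phosphate buffer saline, and the t-DHEA rats from donors injected with dehydroepiandrosterone (DHEA), an androgen precursor that is used to make a rat model of polycystic ovary syndrome. The recipients were not injected with DHEA themselves, and the faecal pellets were pooled before transfer. The study detected no DHEA in donor faeces, but found more DHEA sulfate in those of the DHEA-injected donors. It states that this sulfate was transferred with the microbiota, at levels it judged far too low to produce the syndrome. The rats were housed 2 to a cage, and the labels do not say which livers came from cage mates. The comparison asks whether livers exposed to a DHEA-shaped microbiota differed in the expression of these genes. With pooled pellets, the spread between livers of a group is one between recipients, not between single donors.

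Nrf2, the transcription factor encoded by Nfe2l2, is the main switch of the cellular response to oxidants and electrophiles. Keap1 binds Nrf2 in the cytoplasm and hands it to a Cul3 ubiquitin ligase for degradation. When reactive molecules modify cysteines of Keap1, Nrf2 accumulates, pairs with a small Maf protein and binds antioxidant response elements in its target genes. In liver these targets make glutathione, reduce quinones, break down heme and keep thioredoxin reduced. Nrf2 is controlled largely at the level of the protein, so its transcript is only a part of the pathway. Sod1 and Cat act on superoxide and hydrogen peroxide directly and are abundant in hepatocytes.

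The core of the antioxidant response element, TGACNNNGC, was searched for on both strands of the RefSeq promoter windows of build GRCr8, which run from 250 bases before to 50 bases after a gene's start. Windows were found for 8 of the 10 genes, not for Hmox1 and Gsr, and the windows of 3 genes held a match. Txnrd1 had 2 windows, of which 1 held its match, so that 3 of the 9 windows of these genes held one. Of all 33469 windows, 12.1% held a match. The matches are shown because they mark which of these genes carry the element's letters next to their start. The core letters are in capitals, and each sequence reads in the direction of the gene:
Gclm, chr2:213031953-213031981, plus strand, core on the opposite strand and beginning 172 bases before the start: tgcggtttctGCTTAGTCAttgtcttcca
Txnrd1, chr7:22755964-22755992, minus strand, core on the opposite strand and beginning 78 bases before the start: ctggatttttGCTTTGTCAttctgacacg
Nfe2l2, chr3:81028950-81028971, minus strand, core on the gene's strand and beginning 38 bases after the start: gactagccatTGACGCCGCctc
No match was found in the windows of Keap1, Nqo1, Gclc, Sod1 and Cat. This says only that these letters are not in these windows.

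Nqo1 was the only gene of the 10 to pass the thresholds used in the study (p below 0.05 without adjustment, fold-change above 1.2), here applied to edgeR's quasi-likelihood test of the counts. These thresholds are called the criteria in what follows. It rose 1.56-fold in t-DHEA livers, while its regulator Nfe2l2, its fellow target Hmox1, and Gclc, Gclm, Gsr, Txnrd1, Sod1, Cat and Keap1 did not meet them. This is 1 of 10 genes, beside 4.95% of all 12210 genes tested. In the direction of the change it is 1 gene beside 1.97%, and 0 of the 10 genes were called lower, beside 2.98%. After adjustment over all genes tested, the adjusted p-values of the 10 genes ran from 0.815 to 0.990 in edgeR's quasi-likelihood test. None of the 10 had an adjusted p below 0.05 with that test, with edgeR's likelihood-ratio test or with DESeq2. Over all genes, 634 had an unadjusted p below 0.05, and 0, 28 and 24 had an adjusted p below 0.05 with the quasi-likelihood test, the likelihood-ratio test and DESeq2. Of the 10 genes, 4 were above and 6 below their t-PBS level, with a median log2 fold change of -0.15, against 0.0013 over all genes tested. Leaving out t-DHEA rat 3 raised the number of the 10 genes meeting the criteria from 1 to 4, with Keap1, Gclc and Gclm added to Nqo1. In the same fit 622 of all genes met the criteria, against 604 over all 6 livers.

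**Figure D1:**
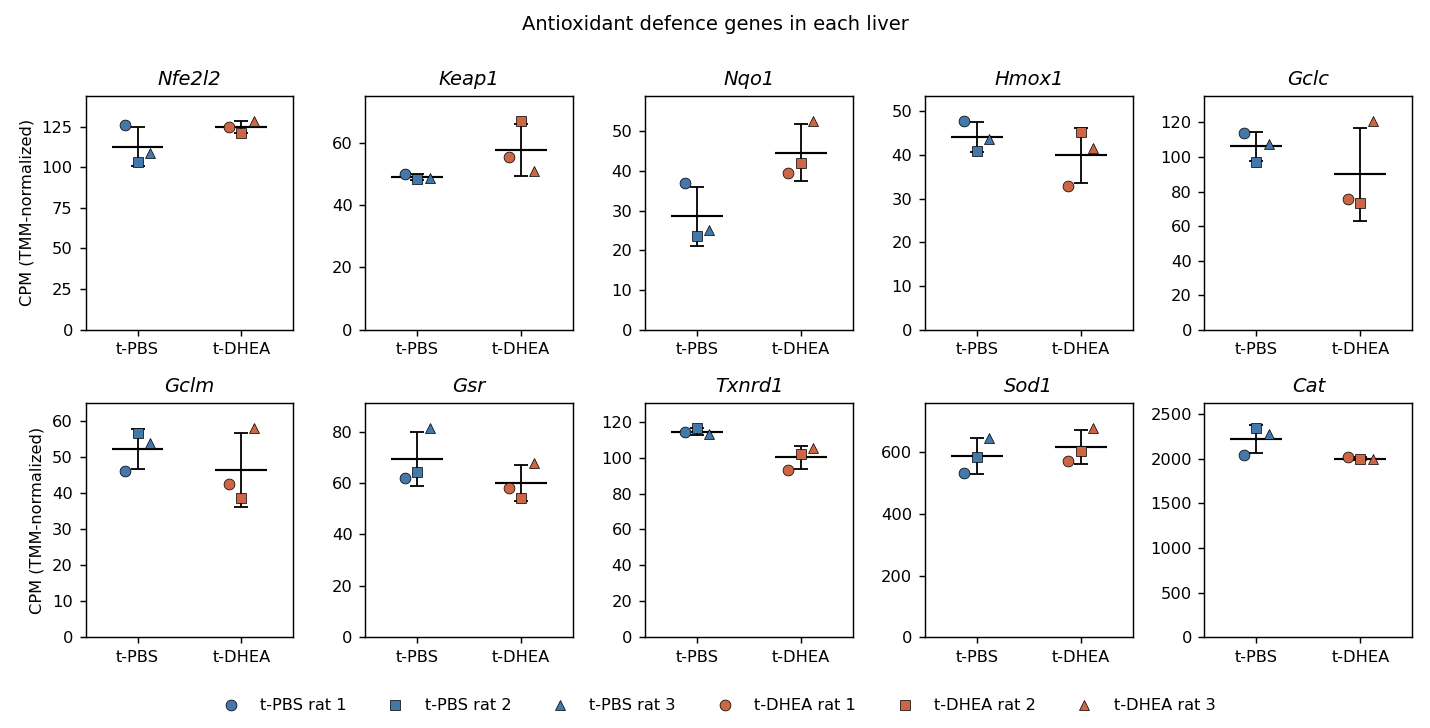
Expression of the 10 genes in each liver as TMM-normalized CPM (counts scaled to the effective library total), with t-PBS livers in blue and t-DHEA livers in orange, a bar at the group mean and error bars of 1 SD (n = 3). Every t-DHEA liver lies above every t-PBS liver for Nqo1 and Keap1 and below for Txnrd1 and Cat.

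For 4 of the 10 genes the livers of the groups separated without overlap. Nqo1 and Keap1 were higher in every t-DHEA liver, and Txnrd1 and Cat were lower in every t-DHEA liver. Groups without overlap were found for 10.1% of all genes tested, 4.66% with t-DHEA above and 5.42% with t-DHEA below. With 3 livers against 3, an exact permutation test, two-sided, gave p = 0.1 for each of these 4 genes, which is the smallest p the design allows.

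Each liver had between 12348511 and 14316886 counts on genes, and albumin took 10.6% to 13.5% of them. The counts of the 10 genes lay between 319 and 31726 per liver. The counting error at each gene's lowest count was between 0.640% for Cat and 5.6% for Nqo1. Coefficients of variation between the livers of a group ran from 0.701% to 29.9%, the latter for Gclc in t-DHEA livers. Levels are given below as CPM after TMM normalization, and differences as log2 fold change, t-DHEA minus t-PBS, with 95% intervals from edgeR's fit. In bulk tissue, fewer cells of a type and less RNA per cell cannot be told apart.

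Per length, the genes fell into an abundant pair and a group of moderate expression. Sod1 was highest, at 917 ± 80.4 FPKM (SD, n = 6), followed by Cat at 830 ± 78.0 FPKM. These levels overlapped, with Sod1 above Cat in 5 of 6 livers. Only 64 genes of the table had a higher mean FPKM than Sod1. Nfe2l2 followed at 51.4 ± 3.66 FPKM, below Cat and above every other gene of the 10 in each of the 6 livers. Gclm, Gclc, Txnrd1, Gsr, Hmox1 and Nqo1 came next, with means between 33.2 and 23.1 FPKM, and each overlapped its neighbour in this order. Keap1 was lowest at 16.9 ± 2.10 FPKM, and overlapped Nqo1. Nfe2l2 FPKM was between 2.47 and 3.47 times that of Keap1 in each liver, with overlapping groups.

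Nfe2l2 lies on chromosome 3 of Rnor_6.0 from 62497571 to 62524996. Its level was 126, 104 and 109 CPM in t-PBS rats 1, 2 and 3, and 125, 121 and 129 CPM in t-DHEA rats 1, 2 and 3. The t-DHEA livers were close to each other, and t-PBS rat 1 lay among them. The means were 113 ± 11.8 and 125 ± 3.90 CPM (SD, n = 3), and the log2 fold change of 0.15 had an interval from -0.08 to 0.37 (edgeR p = 0.180, exact permutation p = 0.3). The interval of Nfe2l2 thus reached up to a 1.3-fold increase. With 1 liver left out its log2 fold change lay between 0.09 (t-PBS rat 2 left out) and 0.23 (t-PBS rat 1 left out), and Nfe2l2 met the criteria in none of these fits.

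Keap1, the inhibitor of Nrf2, lies on chromosome 8 from 22250518 to 22259779. Its level was 50.05, 48.4 and 48.6 CPM in the t-PBS rats and 55.4, 67.1 and 50.8 CPM in the t-DHEA rats. The t-PBS livers were nearly equal, and the t-DHEA livers were all above them but spread widely, with t-DHEA rat 2 highest. Keap1 had a log2 fold change of 0.24 (interval -0.03 to 0.50, edgeR p = 0.0716, exact permutation p = 0.1). Without t-DHEA rat 2 this was 0.12. Without t-DHEA rat 3 Keap1 met the criteria, at 0.33.

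Nqo1, a flavoprotein that reduces quinones to hydroquinones and a classical Nrf2 target that the aryl hydrocarbon receptor also controls, lies on chromosome 19 from 38422164 to 38437180. It had 528, 319 and 332 counts in t-PBS rats 1, 2 and 3, which is 37.0, 23.5 and 25.1 CPM. It had 477, 560 and 682 counts in t-DHEA rats 1, 2 and 3, which is 39.4, 41.9 and 52.7 CPM. The groups were separated by the narrow step between t-PBS rat 1 and t-DHEA rat 1, while t-PBS rats 2 and 3 were far lower. The means were 28.5 ± 7.38 CPM in t-PBS and 44.7 ± 7.07 CPM in t-DHEA livers (SD, n = 3). On the log2 scale Nqo1 rose by 0.65 (SE 0.19, interval 0.22 to 1.07), that is by a fold between 1.17 and 2.10. In edgeR's quasi-likelihood test p was 0.00755 before and 0.815 after adjustment. DESeq2 gave an adjusted p of 0.216, and edgeR's likelihood-ratio test one of 0.246. By its p-value Nqo1 ranked 112th of the genes tested. Leaving out any 1 of the 6 livers kept the call of Nqo1, with log2 fold changes between 0.52 (t-DHEA rat 3 left out) and 0.88 (t-PBS rat 1 left out).

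**Figure D2:**
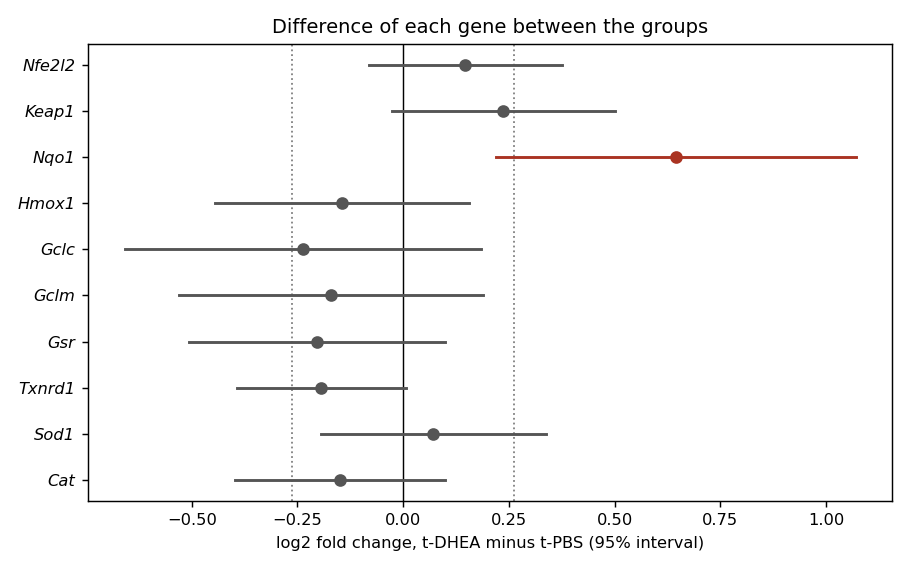
Log2 fold change of each gene, t-DHEA minus t-PBS, with its 95% interval from edgeR's quasi-likelihood fit of 3 against 3 livers; dotted lines mark a fold-change of 1.2 in either direction, and red marks the gene that met the criteria. The interval of Nqo1 runs from 0.22 to 1.07, and those of the other 9 genes include 0.

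Hmox1, which breaks heme down to biliverdin, carbon monoxide and iron, lies on chromosome 19 from 14508616 to 14515456. Its level was 47.8, 40.8 and 43.6 CPM in the t-PBS rats and 32.9, 45.1 and 41.5 CPM in the t-DHEA rats. The groups overlapped, and t-DHEA rat 1 was the lowest liver. Hmox1 had a log2 fold change of -0.14 with an interval from -0.44 to 0.16, and -0.03 without t-DHEA rat 1. Hmox1 is also expressed by Kupffer cells, and the summed level of 12 Kupffer cell markers overlapped between the groups, with 674 to 842 CPM in t-PBS and 731 to 1006 CPM in t-DHEA livers and no marker at 0. The part of these cells in the level of Hmox1 was not tested.

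Gclc and Gclm encode the catalytic and the modifier subunit of glutamate-cysteine ligase, the rate-limiting enzyme of glutathione synthesis. Gclc lies on chromosome 8 from 85059051 to 85097468, and Gclm, whose promoter match is printed above, on chromosome 2 from 225827504 to 225847874. Gclc was at 114, 96.9 and 108 CPM in the t-PBS rats and at 76.0, 73.1 and 121 CPM in the t-DHEA rats. Gclm was at 46.2, 56.8 and 53.9 CPM in the t-PBS rats and at 42.6, 38.7 and 58.0 CPM in the t-DHEA rats. For both subunits t-DHEA rats 1 and 2 lay below every t-PBS liver and t-DHEA rat 3 lay above every t-PBS liver. The log2 fold changes were -0.24 (interval -0.66 to 0.18) for Gclc and -0.17 (interval -0.53 to 0.19) for Gclm. Neither met the criteria over all 6 livers, with edgeR p = 0.233 and 0.308 and an exact permutation p of 0.4 for each. Without t-DHEA rat 3, Gclc fell by 0.50 and Gclm fell by 0.36 on the log2 scale, and both met the criteria. Without t-DHEA rat 2, the values were -0.11 and -0.05. Per length the subunits were nearly equal, since Gclc FPKM was between 0.833 and 1.203 times that of Gclm in each liver.

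Gsr, glutathione reductase, which regenerates glutathione with NADPH, lies on chromosome 16 from 62197617 to 62241361. Its level was 62.2, 64.2 and 81.4 CPM in the t-PBS rats and 58.1, 54.2 and 68.0 CPM in the t-DHEA rats. The groups overlapped through t-DHEA rat 3, and t-PBS rat 3 was the highest liver. For Gsr the log2 fold change was -0.20 (interval -0.51 to 0.10), and it was -0.07 without t-PBS rat 3. A small nucleolar RNA gene lies within Gsr and had 0 counts in every liver, and no other gene of the table overlapped any of the 10 genes.

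Txnrd1, the cytosolic selenoenzyme that reduces thioredoxin, lies on chromosome 7 from 26946125 to 26984400 and carries the other promoter match upstream of a gene start. Its level was 114, 116 and 113 CPM in the t-PBS rats and 93.1, 102 and 105 CPM in the t-DHEA rats. The t-PBS livers varied by 1.52% (coefficient of variation), and all t-DHEA livers were below them. The means were 114 ± 1.74 and 100.1 ± 6.23 CPM (SD, n = 3). Txnrd1 had a log2 fold change of -0.19 (SE 0.09, interval -0.39 to 0.0054, edgeR p = 0.0553, exact permutation p = 0.1). The size of this difference was under the 1.2-fold threshold.

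**Figure D3:**
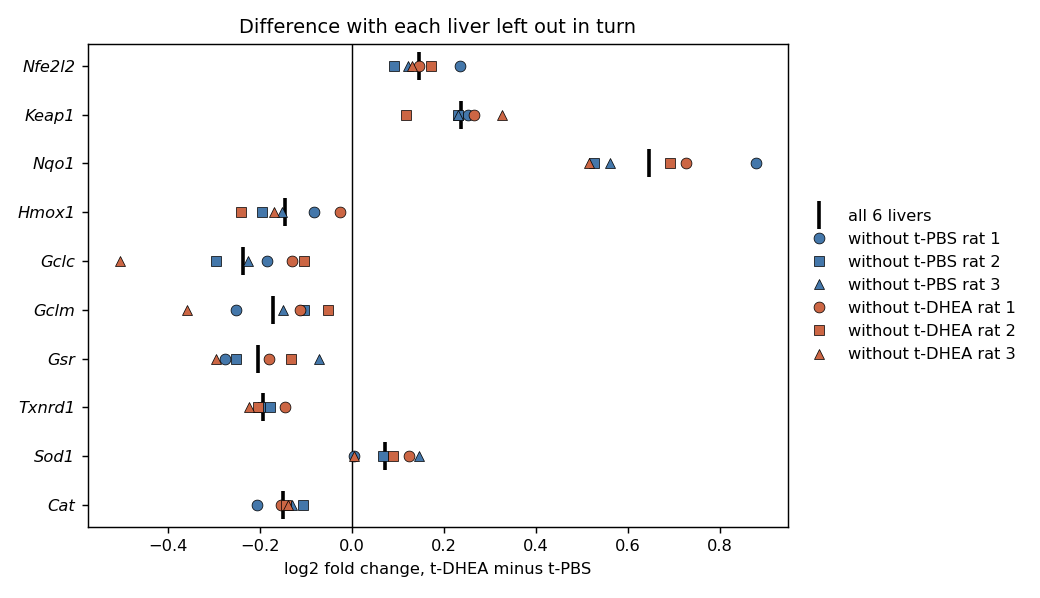
Log2 fold change of each gene, t-DHEA minus t-PBS, over all 6 livers (black bar) and with each liver left out in turn (blue, a t-PBS liver left out; orange, a t-DHEA liver left out). Gclc moves from -0.24 to -0.50 and Gclm from -0.17 to -0.36 without t-DHEA rat 3, while Nqo1 stays between 0.52 and 0.88.

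Sod1, the cytosolic superoxide dismutase, lies on chromosome 11 from 30363280 to 30368862. Its level was 531, 583 and 647 CPM in the t-PBS rats and 571, 603 and 678 CPM in the t-DHEA rats, with the livers of the groups interleaved. Sod1 had a log2 fold change of 0.07 with an interval from -0.20 to 0.34, and values from 0.0035 to 0.15 with 1 liver left out. Cat, the peroxisomal catalase that removes hydrogen peroxide, lies on chromosome 3 from 93379874 to 93412058. Its level was 2038, 2339.5 and 2271 CPM in the t-PBS rats and 2015, 1992 and 1989.9 CPM in the t-DHEA rats. The t-DHEA livers had a coefficient of variation of 0.701% and lay just below t-PBS rat 1. Cat had a log2 fold change of -0.15 (interval -0.40 to 0.10, edgeR p = 0.206, exact permutation p = 0.1). Red blood cells also hold both enzymes. The summed level of 9 red blood cell markers was 208 to 309 CPM in t-PBS and 332 to 618 CPM in t-DHEA livers, without overlap. Most of this sum was from the globins Hba1 and Hbb. Of the 6 markers tested, the 3 called higher were all globins (Hba1, Hbb and Hbb-b1), beside 1.97% of all genes tested called higher. The others, Alas2, Gypc and Slc4a1, were not called and had log2 fold changes of 0.38, 0.18 and -0.11. None of the 9 markers was at 0 in all livers. The part of these cells in the levels of Sod1 and Cat was not tested.

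Over the 10 genes, the intervals of 8 lay within a 1.5-fold change in either direction. Those of Nqo1 and Gclc reached past it.

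Across the 6 livers, Nfe2l2 was related to each other gene of the 10, and Gclc to Gclm, on log2 CPM, which makes 10 relations. Nqo1 followed Nfe2l2 with Pearson's r = 0.93 (exact permutation p = 0.0139, adjusted over the 10 relations 0.0903) and Spearman's rho = 0.77 (exact permutation p = 0.103, adjusted 0.343). Cat ran opposite to Nfe2l2 with r = -0.96 (exact permutation p = 0.0181, adjusted 0.0903) and rho = -0.77 (exact permutation p = 0.103, adjusted 0.343). The livers of t-PBS rats 2 and 3 had the least Nfe2l2, the least Nqo1 and the most Cat. Over the 4 livers left without them, which span a narrow range of Nfe2l2, r was 0.46 for Nqo1 and 0.15 for Cat, so that the relations over 6 livers rested on those 2. After the group means were removed, r was 0.92 and -0.95. Gclc and Gclm had r = 0.79 (exact permutation p = 0.0889, adjusted 0.296) and rho = 0.77 (exact permutation p = 0.103, adjusted 0.343), and r was -0.17 without t-DHEA rats 1 and 2. The other 7 relations of Nfe2l2 had r between -0.57 and 0.35. All livers share 1 scaling, and no relation had an adjusted p below 0.05.

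**Figure D4:**
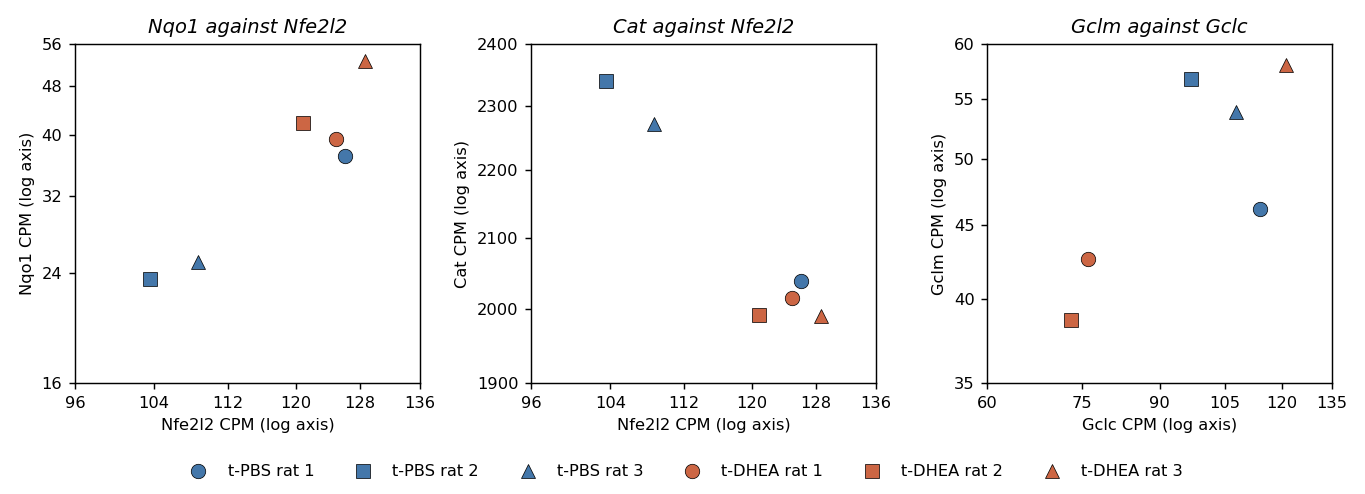
CPM of Nqo1 and Cat against Nfe2l2, and of Gclm against Gclc, 1 point per liver on log axes, with t-PBS livers in blue and t-DHEA livers in orange. For Nfe2l2, t-PBS rats 2 and 3 stand apart from the other 4 livers, and for the ligase subunits t-DHEA rats 1 and 2 lie at the low end of both axes.

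The wider pathway was described with 4 lists written from general knowledge. Among regulators and partners of Nrf2, 15 of 16 genes were tested, 7 were above and 8 below their t-PBS level, and the median log2 fold change was -0.02. Only Bach2 met the criteria, 1 of 15 genes beside 4.95% of all genes tested and 2.98% in its direction. Bach2, a repressor that competes for the same DNA elements and is best known from lymphocytes, had 48, 26 and 23 counts in the t-PBS rats and 16, 17 and 13 counts in the t-DHEA rats. It fell by 0.96 on the log2 scale (SE 0.34, edgeR adjusted p = 0.920). Every t-DHEA liver was below every t-PBS liver, as for 5.42% of all genes tested. Bach2 lost its call without t-PBS rat 1, where it fell by 0.60, and without t-DHEA rat 3, where it fell by 0.85. The most abundant genes of this list per length were Sqstm1, the autophagy receptor that sequesters Keap1, and Rbx1, a subunit of the Cul3 ligase, at 238 and 63.97 FPKM over the 6 livers. Their log2 fold changes were 0.11 and 0.05.

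Of 32 other Nrf2 target genes, 29 were in the table and 26 were tested, with 12 above and 14 below the t-PBS level and -0.03 as the median log2 fold change. Osgin1, an oxidative stress-induced growth inhibitor, was the only one to meet the criteria, 1 of 26 genes beside 4.95% of all genes tested and 2.98% in its direction. It was at 405, 306 and 440 CPM in t-PBS rats 1, 2 and 3 and at 175, 306 and 190 CPM in t-DHEA rats 1, 2 and 3. Osgin1 fell by 0.78 on the log2 scale (SE 0.22, edgeR adjusted p = 0.805). The groups touched only at rat 2 of each group, and the call held with each liver left out in turn. Nqo1 and Osgin1, both Nrf2 targets, met the criteria in opposite directions. The ferritin chains Fth1 and Ftl1, which store iron, were the most abundant genes of the list at 1047 and 637 FPKM, with log2 fold changes of 0.06 and -0.25. Ferritin genes have near-identical copies among which the counting could have split reads. Leaving out t-DHEA rat 3 brought this list from 1 to 6 genes, all lower: Aox1, Ephx1, Ftl1, Gsta3, Gstm1 and Osgin1. The list held 3 with t-PBS rat 1 left out, where Me1 and G6pdx joined Osgin1, and 2 with t-DHEA rat 1 left out, where Gsta2 was higher. In this order, these fits called 622, 556 and 747 of all genes, against 604 over all 6 livers.

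Of 39 other antioxidant enzymes and related proteins, 38 were tested, 21 were above and 17 below their t-PBS level, and the median log2 fold change was 0.04. The 3 that met the criteria were Msrb2, Txnip and Ucp2, 1 higher and 2 lower of 38 genes, beside 1.97% higher and 2.98% lower over all genes tested. Msrb2, a mitochondrial enzyme that repairs oxidized methionine, was at 17.9, 21.1 and 19.2 CPM in t-PBS and 22.9, 24.8 and 25.2 CPM in t-DHEA livers, and rose by 0.32 on the log2 scale. Txnip, an inhibitor of thioredoxin that responds to glucose, was at 142, 136 and 188 CPM in t-PBS and 129, 120.2 and 104 CPM in t-DHEA livers, and fell by 0.40. Ucp2, an uncoupling protein of the mitochondrial inner membrane, was at 20.1, 18.4 and 21.3 CPM in t-PBS and 18, 14.9 and 16.5 CPM in t-DHEA livers, and fell by 0.28. The groups did not overlap for these 3 genes, as for 10.1% of all genes tested. Msrb2 held its call in 5, Txnip in 4 and Ucp2 in 2 of the 6 fits that left out 1 liver. The number called in this list was 1 when t-PBS rat 1 or t-DHEA rat 3 was left out, and 5 when t-PBS rat 2 or t-DHEA rat 1 was left out. In this order, these fits called 556, 622, 514 and 747 of all genes, against 604 over all 6 livers. Selenoprotein P (Sepp1), which carries selenium from the liver, and Gpx1, the cytosolic glutathione peroxidase, were the most abundant at 1855 and 1271 FPKM, with log2 fold changes of -0.0060 and 0.11. The peroxiredoxins Prdx1 to Prdx6, which remove peroxides with thioredoxin or glutathione, had log2 fold changes between -0.07 and 0.18, and none of them met the criteria over all 6 livers. Prdx5 was called higher with t-PBS rat 3 left out.

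Of 22 genes of oxidant sources, 21 were in the table and 16 were tested, with 8 above and 8 below the t-PBS level. No gene of this list met the criteria, beside 4.95% of all genes tested. None had an unadjusted p below 0.05 with edgeR's quasi-likelihood test, edgeR's likelihood-ratio test or DESeq2. Leaving out t-PBS rat 2 added Ncf1, lower, and leaving out t-PBS rat 3 added Por, higher. These fits called 514 and 682 of all genes. Cyp2e1, the ethanol-inducible cytochrome of pericentral hepatocytes, was the most abundant at 926 FPKM, with a log2 fold change of 0.28 (interval -0.09 to 0.65).

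**Figure D5:**
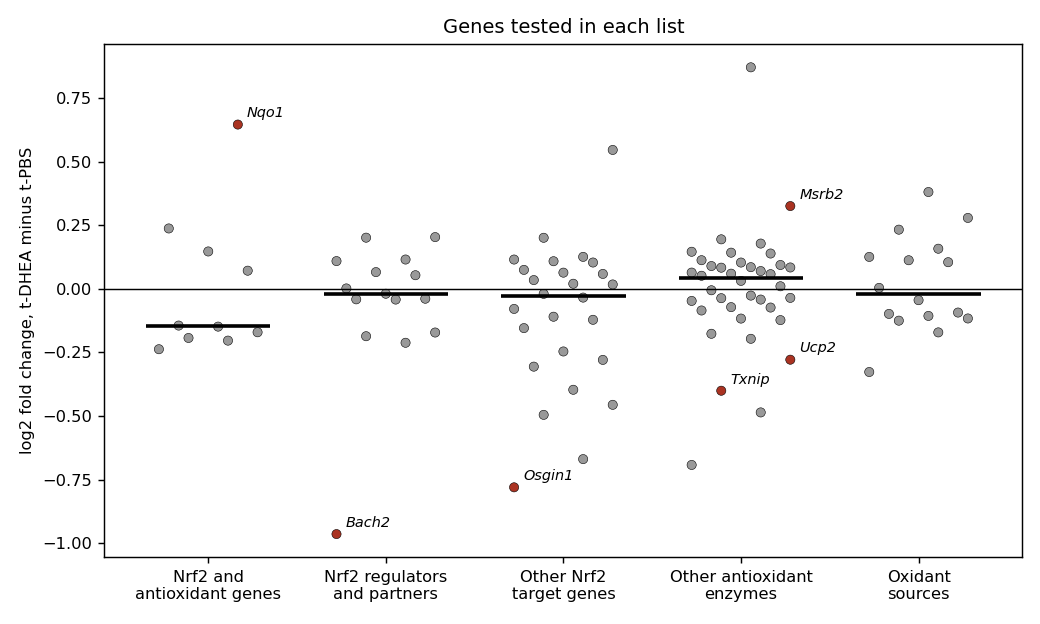
Log2 fold change, t-DHEA minus t-PBS, of each gene tested among the 10 genes and in the 4 lists, with a bar at each list's median; red marks and names the genes that met the criteria. The 6 named genes lie in both directions, and the medians are between -0.15 and 0.04.

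Markers of cells in the tissue were summed per liver. For comparison, 1.97% of all genes tested were called higher and 2.98% lower, and the groups did not overlap for 10.1%. The 10 hepatocyte markers overlapped between the groups, with 169487 to 184291 CPM in t-PBS and 178392 to 198079 CPM in t-DHEA livers. Markers of stellate cells and fibroblasts, 9 of 9 in the table, summed to 565 to 733 CPM in t-PBS and 466 to 546 CPM in t-DHEA livers. Of the 9 tested, the 3 called lower were the matrix genes Lum, Col1a1 and Col3a1. Col3a1 alone made up most of the sum, at 379, 499 and 430 CPM in t-PBS and 329, 286 and 376 CPM in t-DHEA livers. Those not called had log2 fold changes between -0.19 (Des) and 0.04 (Lrat). Markers of bile duct epithelium, 7 of 7 in the table, summed to 42.2 to 47.3 CPM and 31.3 to 41.6 CPM. Of the 6 tested, Krt7 and Krt19 were called lower, both at most 8.11 CPM in any liver. Anxa4 was the largest part, at 23.1, 23.7 and 25.7 CPM in t-PBS and 23.4, 21.8 and 24.5 CPM in t-DHEA livers. Anxa4, Epcam, Sox9 and Cftr were not called, with log2 fold changes of -0.06, -0.25, -0.68 and 0.36. Neither the stellate and fibroblast sum nor the bile duct sum overlapped between the groups. No marker of stellate cells, fibroblasts or bile duct epithelium was at 0 in all livers. The 7 endothelial markers in the table, 1 of them called higher, overlapped between the groups, at 244 to 369 CPM and 347 to 348 CPM. The 7 neutrophil markers summed to 0.516 to 1.54 CPM and 1.78 to 2.23 CPM, with Mpo at 0 in every liver. Only S100a9 had enough counts to be tested, and it was called higher. It made up most of each sum, at 0.911, 0.516 and 0.679 CPM in t-PBS and 1.98, 1.05 and 1.08 CPM in t-DHEA livers. The part of these cells in the differences of Nqo1, Bach2, Txnip and the other genes was not tested.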

How the data were processed

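Total RNA of snap-frozen rat liver was made into paired-end libraries and sequenced (3 t-PBS, 3 t-DHEA). The authors filtered reads with Seqtk, mapped them to Rnor_6.0 with HISAT2 2.0.4 and counted fragments per gene with StringTie 1.3.0; versions are from the submitters' processing notes. The counts the authors deposited are raw, and the FPKM values the authors deposited follow from the counts and a fixed gene length. The annotation release and strandedness are not given in the sources used here, which leaves overlapping genes and antisense partners uncertain. All 12 value columns were mapped to a liver through their labels. No library was a duplicate of another (lowest chi-square of a pair over its degrees of freedom, 15.3).

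Counts were analysed with edgeR 4.0.16 in R 4.3.3: default filter on low counts, TMM factors, quasi-likelihood test between the groups without a block, and Benjamini-Hochberg adjustment over all genes tested. All p-values are two-sided, and those given as edgeR p are unadjusted. The study's methods name edgeR on FPKM, but only the counts were given to edgeR here. Standard errors were derived from the test statistic and intervals from its degrees of freedom. FPKM served to compare levels between genes, and between the groups only in the limma alternatives named below. Counting errors do not cover the differences between rats, and which of the livers came from cage mates is not given in the sources used here. The 10 genes and the lists were chosen with earlier results of these data known. Genes named from the lists were up to 3 with the lowest p among those called and the 2 with the highest mean FPKM; further genes were named after their values were seen, and 1 gene that this rule picked is not reported here. Older symbols were matched through a RefSeq table, and 5 entries of the 4 lists did not match a row; Cbr1 and Mt1 have several rows, of which the one with the most counts was used. Promoter windows and their positions are RefSeq's for GRCr8, a different build from that of the counts, and were not converted. The protein sequences planned for Nfe2l2, Keap1 and Txnrd1 were not used here. The alternatives were DESeq2 1.42.0, the likelihood-ratio test, other scaling factors, other filters, limma 3.58.1 on log2(FPKM + 0.1) and log2(FPKM + 1), each liver left out in turn, and replicate number as a block. The fits were tested on simulated data.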

Additional observations from a re-analysis of the deposited data

How the results depend on the processing

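The 10 genes kept their direction in all 160 refits, and 157 of these refits left the call as it was. The other 3 were those of Keap1, Gclc and Gclm without t-DHEA rat 3. Leaving out 1 liver at a time gave log2 fold changes from 0.12 to 0.33 for Keap1, from -0.50 to -0.11 for Gclc and from -0.36 to -0.052 for Gclm. Genes meeting the criteria then numbered 1 to 4 of the 10, 0 to 1 regulators, 1 to 6 other targets, 1 to 5 other enzymes and 0 to 1 oxidant sources, and 514 to 747 over all genes. At an adjusted p below 0.05 each of these numbers was 0 over all 6 livers in edgeR's quasi-likelihood test (for all genes, 634 had an unadjusted p below 0.05). Above a fold-change of 1.5, 275 genes and 0 other enzymes met the criteria. With total counts in place of TMM factors, 157 genes were higher and 471 lower, or 25% higher, against 240 and 364, or 39.7%, with TMM. The replicate block gave 3 other targets in place of 1, with Ephx1 and Gstm1 added to Osgin1, and 539 of all genes. Same-numbered livers of the groups did not deviate together (r from -0.059 to -0.055 over genes, and 0 of 6 livers correlated best with their own number). The best matches had other numbers, with t-PBS rats 1, 2 and 3 matched to t-DHEA rats 2, 3 and 1 (r = 0.11, 0.12 and 0.11). Deviations from a group's mean sum to 0 over its livers, so some match above 0 arises by construction. These best matches therefore say nothing about a pairing. Whether livers of the groups are paired in some other way was not tested. Of the genes named from the lists, signs turned for Sqstm1 (-0.019 to 0.27 with 1 liver left out), Rbx1 (-0.0037 to 0.14), Fth1 (-0.0090 to 0.13) and Sepp1 (-0.068 to 0.072, and 0.00088 without the filter). Calls were lost by Ucp2 with DESeq2 and with the likelihood-ratio test, and by Txnip under the replicate block. The cause of these changes was not tested.

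Without the 2 livers farthest from its median, the correlation of Nfe2l2 was -0.93 with Keap1, 0.46 with Nqo1, -0.11 with Hmox1, 0.85 with Gclc, 0.94 with Gclm, 0.97 with Gsr, 0.28 with Txnrd1, 0.30 with Sod1 and 0.15 with Cat, and that of Gclc with Gclm was -0.17. Over all 6 livers Spearman's rho was 0.77 for Nqo1 and -0.77 for Cat, neither with an exact permutation p below 0.05, and it differed in sign from r for Hmox1 (0.20), Gclm (0.086) and Sod1 (0.029). The values without 2 livers rest on 4 livers each.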

Other observations

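A pair of enzymes that supply NADPH for glutathione and thioredoxin reduction was chosen here after the values were seen. Me1, malic enzyme, had 879, 3081 and 2029 counts in t-PBS rats 1, 2 and 3 and 1081, 845 and 1622 counts in t-DHEA rats 1, 2 and 3. G6pdx, glucose-6-phosphate dehydrogenase, had 481, 1559 and 1254 counts and 937, 478 and 770 counts. In both genes t-PBS rat 1 was far below the other t-PBS livers. Their log2 fold changes of -0.67 and -0.50 each had an edgeR adjusted p of 0.986.

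Metallothioneins, small cysteine-rich proteins that bind zinc and copper, were also chosen after their values were seen. Mt1 averaged 174 CPM in t-PBS and 107 CPM in t-DHEA livers, and Mt2A averaged 52.7 and 37.7 CPM. The groups overlapped for both, and the edgeR adjusted p-values were 0.969 and 0.986. Both were called lower without t-PBS rat 2, and Mt1 was also called lower over all 6 livers in edgeR's likelihood-ratio test.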
